A study of Homo sapiens with 24 samples.

Results

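The comparison set PI103 with PD0325901 against PD0325901 without PI103 in AGS, an established human gastric adenocarcinoma line. It was chosen by sample label: 4 libraries of the combination and 4 of the single agent, 8 of the 24 libraries in the series, over all 23368 genes of the count table. PD0325901 blocks MEK1 and MEK2, the kinases that activate ERK. PI103 blocks the class I PI3 kinases and mTOR. Cells grew in Ham's F12 medium with serum and were exposed to the inhibitors for 24 h. The single agent was given at 0.035 µM PD0325901. In the combination each inhibitor was at 50% of its single concentration, that is 0.35 µM PI103 with 0.0175 µM PD0325901. The comparison therefore changes both agents at once, and the added PI103 and the lower PD0325901 cannot be told apart by this design. Control cells and cells with 0.7 µM PI103 alone, 4 libraries each, serve below as reference levels. The labels do not say whether the control received a vehicle. The series text calls the 4 replicates of a group biological, and each replicate number is also a batch number in the labels.

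The PI3 kinase, AKT and mTOR chain and the RAF, MEK and ERK chain both run from growth factor receptors to gene expression. mTOR complex 1 raises the synthesis of ATF4, a bZIP factor that drives genes for amino acid synthesis, amino acid uptake and tRNA charging, and it promotes the processing of SREBP factors that drive sterol and fatty acid genes. AKT keeps FOXO factors out of the nucleus, and FOXO factors raise transcripts of insulin and growth factor receptors, so inhibitors of this chain are known to raise receptor expression. ERK drives a short list of feedback genes (DUSP6, the Sprouty genes and ETV factors) that are used as readouts of MEK inhibition.

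Promoter stretches of genes described below are shown because each holds a short motif of a factor whose listed targets are counted below. They come from RefSeq, build GRCh38.p14, within a window from 250 bases before to 50 bases after a start, and each stretch lies before that start. For a gene with several starts the first window listed was used, and for ASNS that start lies inside the gene's full span given below. Capitals mark the motif on either strand. The amino acid response motif TGATGNAA, which ATF4 with a C/EBP partner is known to bind, is shown for ASNS (chr7:97872424-97872521, minus strand), CHAC1 (chr15:40953221-40953314, plus strand), FGF21 (chr19:48755425-48755522, plus strand), MTHFD1L (chr6:150866312-150866409, plus strand) and AARS (chr16:70289641-70289738, minus strand).
ASNS: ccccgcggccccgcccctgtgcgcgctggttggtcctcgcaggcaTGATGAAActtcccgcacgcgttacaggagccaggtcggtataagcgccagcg
CHAC1: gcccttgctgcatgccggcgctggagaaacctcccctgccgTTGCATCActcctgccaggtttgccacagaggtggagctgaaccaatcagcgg
FGF21: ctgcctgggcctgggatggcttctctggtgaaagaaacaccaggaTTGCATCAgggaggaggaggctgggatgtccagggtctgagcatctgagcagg
MTHFD1L: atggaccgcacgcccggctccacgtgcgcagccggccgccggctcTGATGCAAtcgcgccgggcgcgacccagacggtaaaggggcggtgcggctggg
AARS: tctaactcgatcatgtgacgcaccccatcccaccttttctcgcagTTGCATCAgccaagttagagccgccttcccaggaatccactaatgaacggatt
The forkhead motif GTAAACA, the core of FOXO binding sites, is shown for TXNIP (chr1:145996652-145996748, minus strand) and BCL2L11 (chr2:111120664-111120742, plus strand).
TXNIP: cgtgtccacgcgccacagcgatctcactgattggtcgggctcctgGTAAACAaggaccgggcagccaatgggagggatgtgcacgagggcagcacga
BCL2L11: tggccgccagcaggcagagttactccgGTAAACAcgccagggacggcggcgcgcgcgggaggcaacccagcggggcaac
The interferon response motif GAAANNGAA, searched after the values were seen, is shown for BST2 (chr19:17405707-17405805, minus strand), IFIT3 (chr10:89327797-89327895, plus strand) and OAS3 (chr12:112938286-112938384, plus strand), and the CLEAR motif TCACGTGA of lysosomal genes for GAA (chr17:80101459-80101556, plus strand).
BST2: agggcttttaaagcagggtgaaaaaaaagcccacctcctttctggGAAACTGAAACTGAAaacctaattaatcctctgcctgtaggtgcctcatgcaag
IFIT3: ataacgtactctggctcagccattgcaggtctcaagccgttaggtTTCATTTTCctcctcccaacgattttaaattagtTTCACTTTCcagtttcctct
OAS3: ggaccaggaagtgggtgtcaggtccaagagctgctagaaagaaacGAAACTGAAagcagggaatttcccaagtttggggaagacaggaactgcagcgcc
GAA: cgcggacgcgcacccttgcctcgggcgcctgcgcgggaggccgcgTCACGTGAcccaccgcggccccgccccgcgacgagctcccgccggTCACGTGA
TGATGNAA lay in 6 of 28 promoters of the amino acid response list (21.4%) and in 5 of 12 synthetase promoters (41.7%) but in 1 of 13 promoters of the serine and one-carbon list (7.69%), against 3.67% of 27305 promoters. GTAAACA lay in 4 of 24 FOXO list promoters (16.7%, against 3.41%), GAAANNGAA in 15 of 24 interferon list promoters (62.5%, against 8.29%) and TCACGTGA in 6 of 31 lysosome list promoters (19.4%, against 1.04%). TCACGTGA holds the shorter E-box CACGTG, which lay in 17 of 52 ribosome biogenesis promoters (32.7%, against 7.43%). The sterol motif TCACNCCAC lay in 1 of 25 cholesterol list promoters (4%, against 1.15%) and the E2F motif TTTNNCGC in 22 of 31 replication list promoters (71.0%, against 6.90%). The antioxidant motif TGACNNNGC lay in 3 of 10 NRF2 list promoters (30%, against 13.6%) and the xenobiotic motif TNGCGTG in 2 of 7 promoters of the aryl hydrocarbon receptor list (28.6%, against 5.51%). The list counts cover tested genes only, while the 27305 promoters are not so limited. Over 10517 promoters of tested genes the shares were 1.74% for TGATGNAA, 2.29% for GTAAACA, 6.38% for GAAANNGAA and 1.94% for TCACGTGA. They were 9.86% for CACGTG, 1.10% for TCACNCCAC, 10.4% for TTTNNCGC, 15.0% for TGACNNNGC and 7.23% for TNGCGTG. A match describes letters in a window and shows no binding.

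The values are gene counts of stranded mRNA libraries. Counts in genes were 51424603 to 69915677 per library with PD0325901 and 48196670 to 74935514 with the combination. Reads assigned to no gene were 4.24% to 6.27% of the total with PD0325901 and 7.04% to 7.82% with the combination, so these shares did not overlap. Their part in the results was not tested. The 6 markers of a gastric epithelial line (EPCAM, KRT8, KRT18, KRT19, CLDN4, CLDN7) summed to 6546 to 7930 CPM (counts scaled to a common library size) with PD0325901 and to 5832 to 7465 with the combination, and none of the 6 was called. Of 16 leukocyte, fibroblast and endothelial markers, 13 had group means under 1 CPM in both groups. DCN and CDH5 were at 0 in all 8 libraries. The 16 summed to 335 to 473 CPM with PD0325901 and to 316 to 491 with the combination, nearly all of it LYZ. The 1 called among them was LUM, with 62 counts over 4 PD0325901 libraries and 5 over 4 combination libraries. Replicate 2 lay farthest from its group in both groups, with a root mean square deviation of 0.328 to 0.335 on the log2 scale against 0.209 to 0.250 for the other 6 libraries. For genes named below, exons of other genes on the same strand cover 20.2% of the exons of RRM2, 24.96% of WDR52, 17.4% of PIK3R3, 13.9% of OSGIN1, 17.97% of MXD3 and 11.6% of TPP1, so their counts are uncertain to that extent. Because the strand setting of the counting is not given in the sources used here, exons on the opposite strand can matter too. They cover 46.6% of TYMS, 35.8% of PIK3CA, 22.5% of MXD3, 20.3% of RNF43, 18.1% of MLX, 10.9% of BCL2L11, 10.3% of CCND1 and 10.1% of ALDOC.

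The amino acid response genes were lower with the combination than with PD0325901, and their median fall was the deepest of the 38 gene lists described. Many interferon-induced genes, receptor genes and BMP target genes were higher by smaller amounts. By the fitted fold change DDIT4 was 30.7-fold and ASNS 9.75-fold lower, and IFIT3 was 1.82-fold and IRS1 1.73-fold higher. The share of ERK output genes that passed the test, with both directions pooled, was near that of all genes, and few genes of replication and mitosis passed it. Of 13947 genes tested with edgeR's quasi-likelihood test, 2521 (18.1%) had an adjusted p under 0.05, called below. Of these, 1124 (8.06%) were higher with the combination and 1397 (10%) lower. A log2 fold change of at least 1 was reached by 163 called genes upward (1.17%) and 165 downward (1.18%). The median absolute log2 fold change of called genes was 0.45. The groups did not overlap for 2363 genes (16.9%), and the median over all genes tested was -0.0036. The number called was 1385 without replicate 3 of PD0325901 and 1531 without replicate 1 of the combination, and 1222 when only the 8 libraries entered the fit. Counts in the lists below stand against these shares of all genes tested: 18.1% called, 8.06% higher and 10% lower. Where a list below has 0 members called in 1 direction by edgeR's test, the count in that direction was also 0 at an unadjusted p under 0.05 and by DESeq2, except where it is given.

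**Figure D1:**
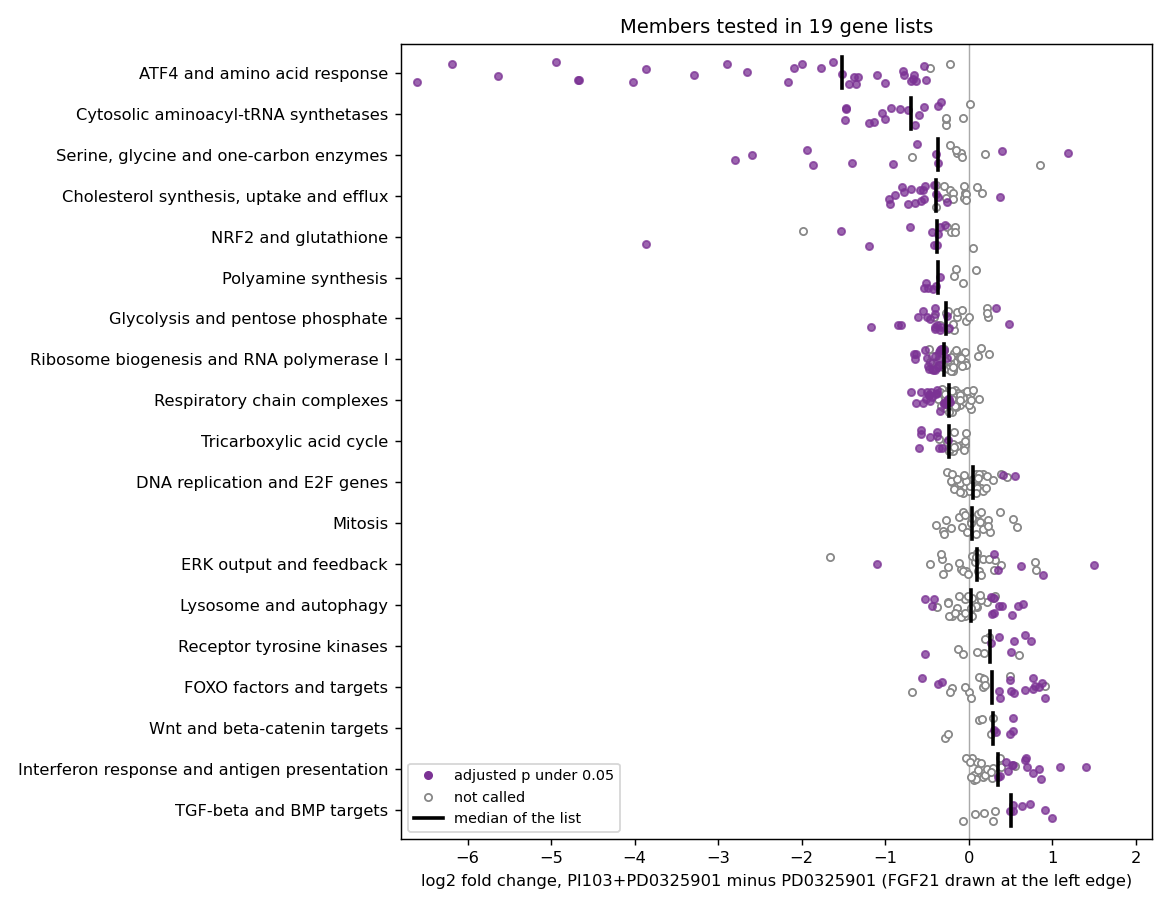
Log2 fold change, combination minus PD0325901, of every tested member of 19 gene lists. Each point is 1 gene, filled where its adjusted p was under 0.05, and the black bar is the list's median, which ran from -1.52 for the amino acid response list to 0.51 for the TGF-beta and BMP list.

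Nearly all genes of the ATF4 and amino acid response list were lower. Of 33 tested members of the amino acid response list, 31 were lower and 0 higher, with a median log2 fold change of -1.52. The same list had a median of -3.19 in PI103 minus control and -1.30 in PD0325901 minus control. In bulk RNA, less transcript per cell and fewer expressing cells cannot be told apart. The count of lower members was 30 to 32 over the alternatives tried. Among the 8 factors 7 were lower. ATF4 itself went from 489.6 ± 80.05 to 287 ± 13.6 CPM (SD, n = 4 each) and fell by 0.77 (SE 0.10, adjusted p = 1.03e-05). NUPR1, a small chromatin-associated stress protein, was at 25.3, 9.701, 17.2 and 12.3 CPM in PD0325901 replicates 1 to 4 and at 0.713, 0.773, 0.477 and 0.525 in those of the combination. Every combination library was far below every PD0325901 library, a fall of 4.68 (SE 0.51, adjusted p = 3.16e-06). TRIB3, a pseudokinase that inhibits AKT and ATF4, had 160, 30, 94 and 63 counts with PD0325901 and 3, 1, 1 and 2 with the combination. Over the group totals of 347 and 7 counts the ratio was 52.0, with a 95% counting interval of 25.0 to 130.4 that covers counting error only.

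The secreted and stress products had the lowest median of the list's roles, -4.35 over 8 tested genes, all of them lower, and the same value with FGF21 at its bound. INHBE (chr12:57455307-57458025), an activin subunit made under amino acid stress, was at 16.6, 3.18, 6.11 and 4.17 CPM with PD0325901. It was at 0.0876, 0.151, 0.0723 and 0.101 CPM with the combination, a fall of 6.18 (SE 1.17, adjusted p = 0.00144), the deepest of the 12 largest falls. FGF21, a secreted metabolic hormone, had 246, 20, 100 and 74 counts with PD0325901 and 0 in every combination library. At its bound, a floor of 3 counts over the combination group, it was 154-fold lower, and the exact 95% counting interval reached down to 125-fold. That interval covers counting error only, not the spread between libraries. DDIT4 (chr10:72273924-72276036), an inhibitor of mTOR complex 1 also known as REDD1, was at 227, 102, 185 and 133 CPM with PD0325901 and at 4.34, 7.51, 4.79 and 4.44 with the combination. The groups were far apart, and the fall was 4.94 (SE 0.74, adjusted p = 0.000164). In control cells DDIT4 was at 668 ± 98.7 CPM and with PI103 alone at 3.11 ± 0.641 (SD, n = 4 each). On the opposite strand, exons of other genes cover 41.2% of DDIT4's exons, and the strand setting of the counting is not given in the sources used here. CHAC1, which degrades glutathione, was at 124, 54.1, 100.5 and 70.8 CPM with PD0325901 and at 4.59, 8.05, 4.89 and 3.92 with the combination, a fall of 4.02 (SE 0.51, adjusted p = 2.42e-05). ADM2, a peptide of the calcitonin family, fell by 2.90 (SE 0.35, adjusted p = 5.75e-06). GDF15, a stress cytokine, fell less, from 72.4 ± 16.3 to 36.03 ± 7.23 CPM (SD, n = 4 each), or by 1.01 (SE 0.21, adjusted p = 0.00219). SESN2, a leucine sensor that restrains mTOR complex 1, fell by 1.52 (SE 0.23, adjusted p = 0.000104).

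**Figure D2:**
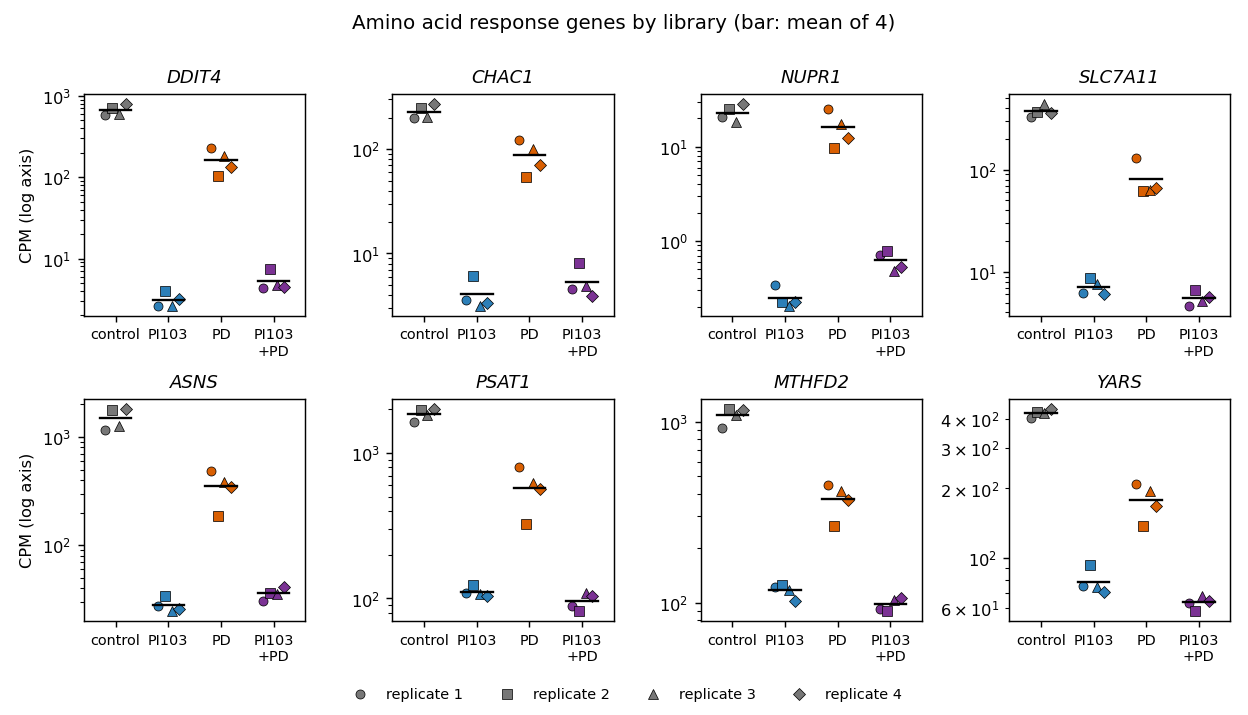
CPM on a log axis of 8 amino acid response genes in the 4 replicates of control, PI103, PD0325901 and the combination, with the mean as a bar. In each of the 8 genes every combination library lay below every PD0325901 library, and for DDIT4 the means were 162 and 5.27.

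Of 7 amino acid enzymes 6 were lower. ASNS, asparagine synthetase (chr7:97851677-97928441), was at 487, 188, 382 and 349 CPM with PD0325901 and at 30.7, 36.6, 35.8 and 41.1 with the combination. The lowest PD0325901 library, replicate 2, was still above all 4 combination libraries, and the fall was 3.29 (SE 0.39, adjusted p = 7.08e-06). Exons of another gene on the same strand cover 44.6% of those of ASNS, so its count is uncertain to that extent. CTH, which makes cysteine from cystathionine, was at 30.7 ± 9.32 CPM with PD0325901 and 4.86 ± 1.14 with the combination (SD, n = 4 each) and fell by 2.66 (SE 0.34, adjusted p = 1.77e-05). PCK2, the mitochondrial enzyme that makes phosphoenolpyruvate, fell by 2.09 (SE 0.25, adjusted p = 4.86e-06).

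All 10 amino acid transporters tested were lower. SLC7A11, the cystine importer, was at 131, 62.4, 62.9 and 65.6 CPM with PD0325901 and at 4.66, 6.62, 5.22 and 5.64 with the combination. Replicate 1 of PD0325901 was the highest of the 8 and the groups did not overlap, and the fall was 3.86 (SE 0.51, adjusted p = 3.93e-05). With any 1 of the 8 libraries left out it was -3.98 to -3.54. SLC7A5, the large neutral amino acid transporter that supplies leucine, fell from 454 ± 122 to 211 ± 20.1 CPM (SD, n = 4 each), or by 1.10 (SE 0.16, adjusted p = 3.88e-05).

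The 3 serine synthesis enzymes were lower, and so were MTHFD2, SHMT2 and MTHFD1L of the mitochondrial folate cycle. PSAT1, the aminotransferase of serine synthesis, was at 802, 323, 623 and 566 CPM with PD0325901 and at 89.1, 82.1, 109.6 and 103 with the combination. The groups did not overlap, and the fall was 2.59 (SE 0.27, adjusted p = 1.56e-06). PSPH, the last enzyme of that path, fell by 1.86 (SE 0.21, adjusted p = 2.31e-06). PHGDH, its first enzyme, was nearly silent, with 16 counts over 4 PD0325901 libraries and 2 over 4 combination libraries. The ratio was 8.40 with a counting interval of 1.97 to 75.3, and its call was lost under 6 of 15 alternatives, 5 of which left out 1 library (replicate 2, 3 or 4 of the combination, replicate 1 or 3 of PD0325901). MTHFD2, of the mitochondrial folate cycle, was at 445, 266, 414 and 368 CPM with PD0325901 and at 92.03, 90.03, 104 and 105 with the combination, and fell by 1.93 (SE 0.18, adjusted p = 3.06e-07). On the opposite strand, exons of other genes cover 33.2% of MTHFD2's exons. SHMT2, which yields glycine and a one-carbon unit in mitochondria, fell by 1.40 (SE 0.16, adjusted p = 2.31e-06). SHMT1 and MTHFD1, the cytosolic partners, were at -0.14 and -0.09, neither called. Over the list of 19 genes, 9 were lower and 2 higher, AMT of the glycine cleavage system at 1.19 among them, with a median of -0.36. Neither of those 2 was called without replicate 2 of PD0325901 or without replicate 1 or 4 of the combination, and 1 of them was not called without replicate 2 or 3 of the combination or replicate 1 or 3 of PD0325901.

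Of 20 cytosolic aminoacyl-tRNA synthetases, which load amino acids onto tRNAs, 15 were lower and 0 higher, with a median of -0.69. YARS fell from 177 ± 31.7 to 63.7 ± 3.95 CPM (SD, n = 4 each), or by 1.48 (SE 0.15, adjusted p = 7.84e-07). CARS fell by 1.47 (SE 0.16, adjusted p = 2.31e-06) and GARS by 1.47 (SE 0.16, adjusted p = 1.71e-06). The 5 that were not called were DARS, FARSB, KARS, QARS and RARS, with values from -0.27 to 0.02.

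Most sterol synthesis genes fell, from levels that were above control with PD0325901. Of 20 synthesis enzymes tested, 13 were lower and 0 higher, with a median of -0.54, whereas the same 20 had a median of 0.81 in PD0325901 minus control and 0.35 in PI103 minus control. HMGCS1, which makes HMG-CoA, was at 589, 1135, 812 and 730.0 CPM with PD0325901 and at 433, 621, 490.0 and 478 with the combination. The combination was lower in all 4 same-numbered pairs but the groups overlapped, because replicate 2 of the combination lay above replicate 1 of PD0325901. The fall was 0.69 (SE 0.18, adjusted p = 0.0103). MVD, the decarboxylase of the mevalonate pathway, was at 68.9, 103, 96.3 and 77.7 CPM with PD0325901 and at 40.2, 55.6, 42.2 and 41.1 with the combination, without overlap, and fell by 0.95 (SE 0.13, adjusted p = 1.61e-05). ACAT2, which joins acetyl-CoA units, fell by 0.94 (SE 0.13, adjusted p = 1.53e-05). Exons of other genes on the opposite strand cover 52.3% of ACAT2's exons and 14.95% of HMGCS1's. SREBF1, which encodes the SREBP1 factor, fell by 0.52 (SE 0.10, adjusted p = 0.00101), and ABCA1, the cholesterol exporter, by 0.88 (SE 0.25, adjusted p = 0.016), a call lost under 3 of 15 alternatives, among them those without replicate 1 or 3 of the combination. INSIG1, which retains SREBP factors in the endoplasmic reticulum, was at -0.39 (SE 0.17, adjusted p = 0.117) and not called.

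Among 14 genes of fatty acid synthesis and activation 6 were lower and 1 higher, the acetyl-CoA carboxylase ACACB at 0.58, which was not called without replicate 1 of the combination or replicate 3 of PD0325901. SCD, the stearoyl-CoA desaturase, fell from 1746 ± 230.5 to 1005 ± 70.7 CPM (SD, n = 4 each), or by 0.80 (SE 0.11, adjusted p = 2.01e-05), without overlap. FASN, fatty acid synthase, fell by 0.44 (SE 0.11, adjusted p = 0.00695). ACSS2, which activates acetate, fell by 0.84 (SE 0.12, adjusted p = 2.86e-05) and ACSL1, which activates long-chain fatty acids, by 1.02 (SE 0.14, adjusted p = 1.51e-05).

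Part of the glycolytic and mitochondrial genes were lower, most by small amounts. Of 33 genes of glucose uptake, glycolysis and the pentose phosphate path, 16 were lower and 2 higher (PFKFB3 0.32 and PDK2 0.49), with a median of -0.27. Those 2 became 1 without replicate 1 or 3 of the combination or replicate 1, 3 or 4 of PD0325901, and 4 with the replicate block. The 16 glycolytic enzymes had 10 lower and a median of -0.37. HK2, the inducible hexokinase, was at 30.97, 15.3, 23.3 and 25.5 CPM with PD0325901 and 14.8, 9.83, 14.9 and 13.3 with the combination, and fell by 0.85 (SE 0.18, adjusted p = 0.00232). ALDOC, an aldolase isoform, fell by 1.18 (SE 0.16, adjusted p = 1.81e-05) and PDK1, which inhibits pyruvate dehydrogenase, by 0.81 (SE 0.09, adjusted p = 1.56e-06). SLC2A1, the main glucose transporter, was at -0.14 (SE 0.15, adjusted p = 0.531) and not called, with an interval of -0.43 to 0.14. HKDC1, a hexokinase relative, fell by 2.37 (SE 0.54, adjusted p = 0.00409). Replicate 2 held 20.8 CPM of HKDC1 with PD0325901 and 5.26 with the combination, against 5.22 to 5.999 and 0.492 to 0.869 in the other replicates, and the log2 fold change was -3.77 without that library of the combination and -1.64 without that library of PD0325901. The call was lost when only the 8 libraries entered the fit (adjusted p = 0.0608). Of 24 tricarboxylic acid cycle genes 9 were lower (37.5%), and of 72 respiratory chain genes 22 were lower (30.6%), against 10% of all genes tested. Both lists had 0 higher and a median of -0.24. IDH1 fell by 0.58 (SE 0.11, adjusted p = 0.000695), CYC1 of complex III by 0.63 (SE 0.13, adjusted p = 0.00121) and ATP5G1 of the ATP synthase by 0.69 (SE 0.14, adjusted p = 0.00158). The count in the respiratory chain was 13 without replicate 3 of PD0325901 and 14 without replicate 1 of the combination, and in the cycle 14 with the replicate block.

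Genes of protein synthesis and growth were also lower in part. EIF4EBP1, the translation repressor that mTOR complex 1 phosphorylates and ATF4 induces, was at 85.1, 36.1, 76.7 and 58.1 CPM with PD0325901 and 23.1, 20.4, 24.7 and 25.1 with the combination, without overlap. It fell by 1.46 (SE 0.22, adjusted p = 8.32e-05). EIF2S2, a subunit of the eIF2 initiation factor, fell by 0.80 (SE 0.11, adjusted p = 1.4e-05). Of 39 initiation and elongation genes 9 were lower, all of them initiation genes, and 0 higher (23.1% called, against 18.1% of all genes tested). The 9 became 15 with the replicate block or without replicate 2 of PD0325901, and 5 without replicate 3 of PD0325901. Of 59 ribosome biogenesis genes 20 were lower and 0 higher (1 higher at an unadjusted p under 0.05, 0 by DESeq2), with a median of -0.29, DKC1 of the pseudouridylation complex falling by 0.66 (SE 0.10, adjusted p = 7.45e-05). That count was 5 without replicate 3 and 39 without replicate 2 of PD0325901, and also moved by over 1.5 times without replicate 1 (10) or 4 (11) of PD0325901 and without replicate 2 (7) or 4 (13) of the combination. NCL, nucleolin, was at -0.03 (SE 0.11, adjusted p = 0.874) and not called. Of 10 polyamine genes 6 were lower, among them ODC1, ornithine decarboxylase, by 0.43 (SE 0.09, adjusted p = 0.00148), and the 6 became 3 without replicate 3 of PD0325901. Of 16 NRF2 and glutathione genes 10 were lower, with a median of -0.38. OSGIN1 fell by 0.70 (SE 0.12, adjusted p = 0.000329) and FTL, ferritin light chain, by 0.44 (SE 0.09, adjusted p = 0.00148), while SLC7A11 is a member of this list as well. NQO1, the classic target, was at -0.26 and not called.

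Genes of the inhibited pathways themselves were called about as often as all genes. Of 40 genes for PI3 kinase, AKT, mTOR, RAF, MEK and ERK components 7 were called (17.5%, against 18.1% of all genes tested). Of these 6 were lower, EIF4EBP1 among them, and the 6 became 3 without replicate 1 of PD0325901. PIK3CA, the catalytic subunit p110 alpha, was the 1 that was higher. It rose by 0.37 (SE 0.10, adjusted p = 0.0152), and the count of higher genes was 0 without replicate 3 of PD0325901 or replicate 1 of the combination and 4 without replicate 2 of PD0325901 or without batch 2. PIK3R3, a regulatory subunit, fell by 1.03 (SE 0.21, adjusted p = 0.00133).

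Part of the receptor and FOXO target genes rose, and these lists share members. Of 28 tested members of the FOXO list 53.6% were called, against 18.1% of all genes tested. In this list 12 were higher and 3 lower (SESN1 -0.32, GADD45A -0.56 and CAT -0.36), with a median of 0.28. The 3 became 1 without replicate 1 of the combination. Of its 5 tested receptor and PI3 kinase feedback genes 4 were higher. IRS1, the adaptor of insulin and IGF receptors, was at 33.4, 25.5, 26.7 and 31.9 CPM with PD0325901 and at 58.3, 40.6, 53.9 and 50.5 with the combination. The groups did not overlap, and IRS1 rose by 0.79 (SE 0.12, adjusted p = 7.02e-05). In control cells IRS1 was at 72.6 ± 4.22 CPM, above both groups, and with PI103 alone it did not pass the test (0.18, adjusted p = 0.227). IGF1R, the IGF1 receptor, was at 30.7, 31.8, 21.5 and 25.1 CPM with PD0325901 and 50.1, 42.3, 43.9 and 37.8 with the combination, without overlap, and rose by 0.68 (SE 0.12, adjusted p = 0.000282). INSR, the insulin receptor, rose by 0.54 (SE 0.11, adjusted p = 0.00147) and ERBB3, a ligand-binding partner of ERBB2, by 0.36 (SE 0.09, adjusted p = 0.00598). PIK3IP1, an inhibitor of PI3 kinase, was under 2 CPM in all 8 libraries and not called, at 0.16 (SE 0.38, adjusted p = 0.806). IRS2 held 0 counts throughout and was not tested. CCNG2, an atypical cyclin of quiescent cells, rose by 0.77 (SE 0.14, adjusted p = 0.000574). TXNIP, which restrains glucose uptake, was at 117, 52.9, 52.1 and 40.6 CPM with PD0325901 and 132, 129, 117 and 106 with the combination. Replicate 1 of PD0325901 lay within the range of the combination, so the groups overlapped, and TXNIP rose by 0.88 (SE 0.22, adjusted p = 0.00888), a call lost without batch 2. C5orf41, the CREBRF gene, rose by 0.84 (SE 0.15, adjusted p = 0.000366). Of 14 receptor tyrosine kinases 6 were higher and 1 lower (FGFR4 -0.52), or 50% called against 18.1% of all genes tested. INSR, IGF1R and ERBB3 are members of both this list and the FOXO list, so they are counted in each. MET, the HGF receptor, was at 49.8, 40.7, 34.4 and 37.96 CPM with PD0325901 and 88.4, 48.9, 62.6 and 72.5 with the combination. The groups overlapped at replicate 2 of the combination, all 4 pairs were higher, and MET rose by 0.74 (SE 0.14, adjusted p = 0.000482).

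**Figure D3:**
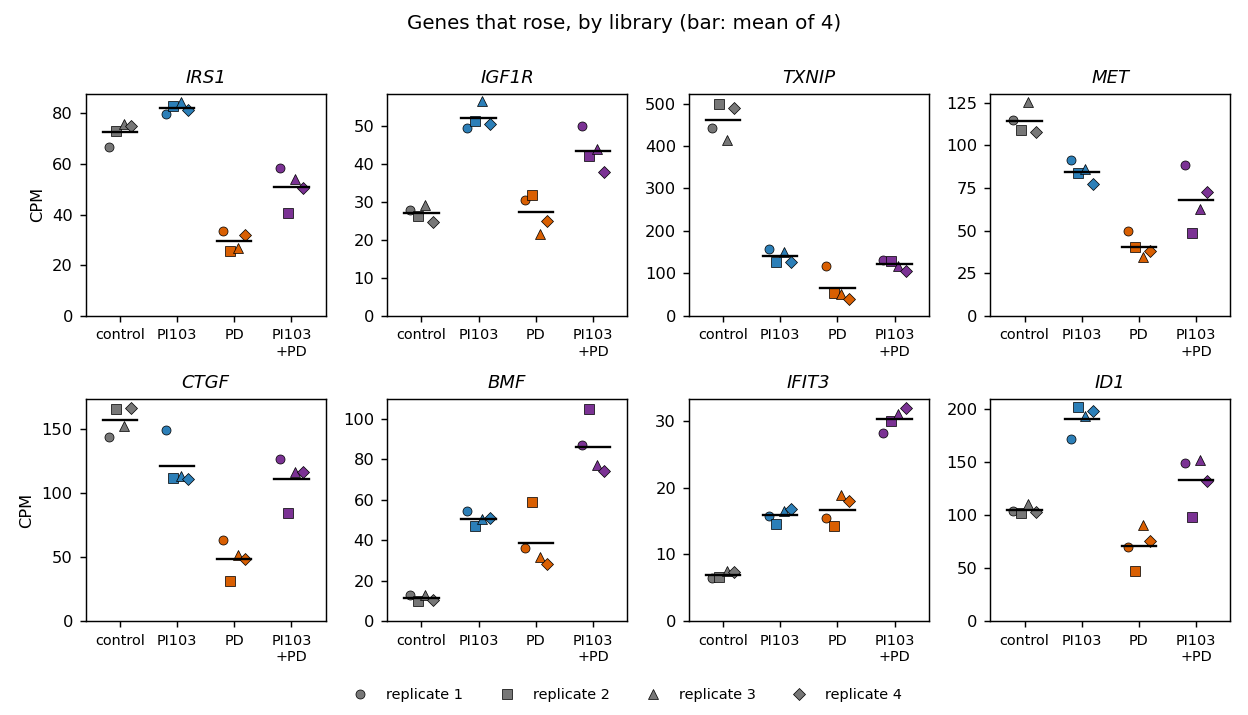
CPM of 8 genes that rose, in the 4 replicates of control, PI103, PD0325901 and the combination, with the mean as a bar. MET, CTGF and TXNIP were highest in control cells, where their means were 114, 157 and 461, while IFIT3 and BMF were highest with the combination, at 30.3 and 85.9.

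Most interferon-induced genes were higher with the combination. Of 15 tested induced genes 11 were higher and 0 lower, with a median of 0.68, and 3 of 7 interferon factors (IRF1, IRF7 and IRF9) were higher. Of 11 antigen presentation genes 0 were called by edgeR or DESeq2 and 2 were higher at an unadjusted p under 0.05, with a median of 0.11. Over the list of 33 the count was 14 higher and 0 lower, and 12 to 16 over the alternatives. IFIT3, an antiviral protein of the IFIT family, was at 15.5, 14.3, 18.9 and 18.02 CPM with PD0325901 and 28.1, 30.0, 31.01 and 32.0 with the combination. The groups did not overlap, and IFIT3 rose by 0.86 (SE 0.10, adjusted p = 1.71e-06). OAS2, a sensor of double-stranded RNA, was at 2.01, 2.23, 2.29 and 1.799 CPM with PD0325901 and 6.53, 5.91, 4.96 and 4.65 with the combination, and rose by 1.40 (SE 0.25, adjusted p = 0.000421). BST2, or tetherin, rose by 1.10 (SE 0.21, adjusted p = 0.000972). RSAD2, or viperin, rose by 1.28 (SE 0.17, adjusted p = 1.62e-05) and the chemokine CXCL11 by 1.27 (SE 0.25, adjusted p = 0.00126). In control cells IFIT3 was at 6.95 ± 0.562 CPM and OAS2 at 0.266 ± 0.225 (SD, n = 4 each), below both groups. CFB, complement factor B (chr6:31946095-31952084), was at 6.86, 10.3, 6.42 and 5.23 CPM with PD0325901 and 18.8, 33.3, 16.05 and 14.7 with the combination. It rose by 1.53 (SE 0.22, adjusted p = 5.61e-05), and exons of another gene on the same strand cover 45.5% of its own. Of 10 complement genes 4 were higher and 0 lower, the others being C5 (0.62), SERPING1 (0.85) and CD55 (0.28), the last losing its call under 12 of 15 alternatives. The 4 became 1 without replicate 1 or 2 of the combination or replicate 3 or 4 of PD0325901, and 2 without replicate 3 of the combination or without batch 2. Of 19 NF-kB and chemokine genes 1 was called (5.26%, against 18.1% of all genes tested). It was the inhibitor NFKBIB, lower by 0.48 (SE 0.11, adjusted p = 0.00266). The list had 0 higher by either tool, 3 at an unadjusted p under 0.05 and 2 without replicate 2 of PD0325901.

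Several targets of BMP, TGF-beta and Wnt signals rose. Of 12 TGF-beta and BMP targets 7 were higher and 0 lower, with a median of 0.51 and a count of 6 to 7 over the alternatives. ID1, an inhibitor of bHLH factors, was at 69.3, 46.9, 90.7 and 74.9 CPM with PD0325901 and 149, 98.4, 152 and 132 with the combination, without overlap, and rose by 0.92 (SE 0.17, adjusted p = 0.000898). BMP4, the ligand itself, rose by 0.73 (SE 0.13, adjusted p = 0.000429) and TGFBI, a matrix protein, by 1.00 (SE 0.22, adjusted p = 0.0026). Of 11 Wnt targets 5 were higher (LGR5, NKD1, RNF43, AXIN2 and MYC) and 0 lower (1 by DESeq2, 2 at an unadjusted p under 0.05), and the 5 became 3 without replicate 3 of PD0325901 or replicate 1 of the combination. LGR5, a receptor that marks gut stem cells, was at 240.1, 231, 201 and 234 CPM with PD0325901 and 347, 292, 307 and 333 with the combination, without overlap. It rose by 0.50 (SE 0.09, adjusted p = 0.000348). RNF43, a ubiquitin ligase that removes Wnt receptors, rose by 0.53 (SE 0.10, adjusted p = 0.000602), and exons of other genes on the same strand cover 59.5% of its own. Of 11 YAP and TEAD targets 3 were higher and AJUBA was lower (36.4% called, against 18.1% of all genes tested). AJUBA lost its call without replicate 3 of the combination or replicate 1 of PD0325901. CTGF, a secreted matricellular protein, was at 63.03, 31.3, 51.3 and 48.5 CPM with PD0325901 and 126, 84.3, 116 and 116 with the combination. The groups did not overlap, and CTGF rose by 1.19 (SE 0.17, adjusted p = 3.75e-05). WWTR1, the YAP relative TAZ, rose by 0.62 (SE 0.12, adjusted p = 0.00116) and LATS2 by 0.35 on the same scale. Among 18 gastric and intestinal genes TFF1, CLDN18, SOX2 and VIL1 were lower and LGR5 higher (27.8% called, against 18.1% of all genes tested). TFF1, a gastric trefoil peptide, fell from 12.6 ± 2.98 to 5.797 ± 1.62 CPM (SD, n = 4 each), or by 1.12 (SE 0.23, adjusted p = 0.00158), and SOX2, a foregut factor, by 0.81 (SE 0.19, adjusted p = 0.00497).

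Some lysosomal genes rose slightly. Of 24 tested enzymes and membrane proteins 8 were higher and 2 lower (NEU1 -0.52 and GLA -0.43), with a median of 0.10. NEU1 lost its call without replicate 1 or 3 of the combination, without replicate 2 of PD0325901 and with only the 8 libraries. TPP1, a lysosomal peptidase, rose by 0.59 (SE 0.11, adjusted p = 0.000806), and GAA, the acid glucosidase whose promoter stretch holds TCACGTGA at both capitalised places, rose by 0.51 (SE 0.10, adjusted p = 0.00107). GABARAPL1, an autophagosome protein, was at 38.6, 37.2, 36.4 and 35.5 CPM with PD0325901 and 65.02, 57.8, 54.0 and 55.4 with the combination, without overlap. It rose by 0.65 (SE 0.08, adjusted p = 3.78e-06). Over all 41 lysosome and autophagy genes 9 were higher and 3 lower, with a median of 0.03 (29.3% called, against 18.1% of all genes tested). The 9 became 5 without replicate 1 or 2 of the combination or replicate 1 or 4 of PD0325901.

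BH3-only genes of the BCL2 family moved in both directions. BMF, a killer protein held at the cytoskeleton, was at 36.2, 58.6, 31.8 and 28.3 CPM with PD0325901 and 86.99, 105, 77.3 and 74.3 with the combination, without overlap, and rose by 1.15 (SE 0.16, adjusted p = 3.16e-05). BCL2L11, or BIM, a FOXO target, was at 30.4, 29.5, 23.7 and 24.5 CPM with PD0325901 and 43.7, 35.04, 37.8 and 36.6 with the combination. It also rose, by 0.50 (SE 0.10, adjusted p = 0.00174). PMAIP1, or NOXA, an ATF4 and p53 target, was at 21.2, 9.38, 18.98 and 19.2 CPM with PD0325901 and 6.47, 6.25, 8.52 and 9.11 with the combination, without overlap. It fell by 1.18 (SE 0.23, adjusted p = 0.00112). The other called members of 13 tested were BOK (0.25), BAK1 (-0.39) and BID (-0.30). The guardians BCL2L1, BCL2L2 and MCL1 were at 0.10, 0.17 and 0.08, none called (1 higher at an unadjusted p under 0.05, 0 by DESeq2).

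Few genes of replication and mitosis passed the test. In 35 replication and E2F genes 2 were higher (E2F2 and E2F7) and 0 lower (1 lower at an unadjusted p under 0.05, 0 by DESeq2), or 5.71% called against 18.1% of all genes tested. In 25 mitosis genes edgeR's test called 0, DESeq2 called 1 higher, and 2 were higher and 1 lower at an unadjusted p under 0.05. Without replicate 2 of the combination the counts of higher genes were 10 and 6, and without batch 2 they were 5 and 3. Without replicate 2 of PD0325901, 2 genes of each list were lower, and the 2 higher replication genes became 0 there and without replicate 1, 3 or 4 of the combination or replicate 3 of PD0325901. Of 16 G1 cyclins, kinases and inhibitors 5 were called (31.25%): RBL2 (0.38) and CDKN2C (0.39) higher, and CDKN1C, CDKN1A (-0.41) and CDK4 (-0.33) lower. Without 1 library at a time the higher ones were 1 to 6, the most without replicate 2 of the combination, and the lower ones were 1 without replicate 4 of the combination or replicate 1 or 3 of PD0325901. RRM2, the small subunit of ribonucleotide reductase, was at 190.2, 137, 193 and 193 CPM with PD0325901 and 213, 119, 213 and 215 with the combination. Replicate 2 was lowest in both groups, and the difference was 0.09 (SE 0.14, adjusted p = 0.689). MKI67, the proliferation antigen, was at 0.38 (SE 0.20, adjusted p = 0.192), with an interval of -0.01 to 0.77. CCND1, cyclin D1, was higher in all 4 pairs, at 0.39 (SE 0.16, adjusted p = 0.0784), and not called. CDKN1C, the cyclin kinase inhibitor p57, was at 12.7, 35.6, 17.6 and 14.9 CPM with PD0325901 and 8.03, 13.6, 8.13 and 7.72 with the combination. All 4 pairs were lower, the groups overlapped through replicate 2 of the combination, and CDKN1C fell by 1.11 (SE 0.25, adjusted p = 0.00422).

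Other regulators moved in smaller numbers. Of 12 genes of the MYC, MAX and MXD network 5 were higher (MXD1, MXD3, MYC, MYCN and MNT) and MLX was lower. The 5 became 3 without replicate 1 or 3 of the combination or replicate 3 or 4 of PD0325901. MXD1 was at 18.1, 26.7, 14.3 and 16.3 CPM with PD0325901 and 29.1, 36.02, 28.9 and 29.01 with the combination, without overlap, and rose by 0.71 (SE 0.13, adjusted p = 0.000601). Of 13 hypoxia-inducible factor targets NDRG1 and KDM3A were higher, and VEGFA, P4HA1 and ADM were lower (38.5% called, against 18.1% of all genes tested). The 2 higher ones became 0 without replicate 3 or 4 of PD0325901 and 1 without replicate 1 of PD0325901 or replicate 1 or 2 of the combination. Of 18 endoplasmic reticulum chaperone genes HERPUD1 and XBP1 were lower (11.1% called, against 18.1% of all genes tested). In this list 0 were higher (0 by DESeq2, 1 at an unadjusted p under 0.05). HERPUD1, which takes part in degradation of misfolded proteins, fell by 0.65 (SE 0.14, adjusted p = 0.00302). The 2 lower genes became 4 without replicate 2 of the combination and 1 without replicate 4 of the combination or replicate 3 of PD0325901. Of 17 p53 targets 6 were lower and 0 higher (1 by DESeq2, 2 at an unadjusted p under 0.05), and the 6 became 3 without replicate 3 of PD0325901. The share called was 35.3%, against 18.1% of all genes tested. SESN2, the deepest fall of these targets at -1.52, and GDF15 are members of the amino acid response list as well. Of 26 nucleotide synthesis genes 5 were lower and 0 higher (0 by DESeq2, 1 at an unadjusted p under 0.05). The share called was 19.2%, near the 18.1% of all genes tested. The 5 became 10 without replicate 2 of PD0325901, 3 without replicate 1 or 4 of PD0325901 or replicate 1 of the combination, and 2 without replicate 3 of PD0325901 or replicate 2 of the combination.

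The MEK inhibitor went to 50% of its single concentration in this comparison. With both directions pooled, ERK output genes were called about as often as all genes (19.4% against 18.1%). By direction, 8.06% of all genes tested were higher and 10% lower. Of 31 tested ERK output genes 5 were higher, SPRY1, EPHA4, FOS and ETV1 among them, and 1 was lower. The list's median was 0.10, where PD0325901 minus control gave -2.89. The 5 became 1 without replicate 3 of PD0325901 or replicate 1 of the combination, 2 without replicate 1 of PD0325901, and 3 without replicate 4 of PD0325901 or replicate 3 of the combination. DUSP6, the ERK phosphatase, was at 132 ± 13.4 CPM in control cells (SD, n = 4). It was at 3.71, 1.72, 4.24 and 4.75 CPM with PD0325901 and 4.63, 1.63, 4.31 and 5.01 with the combination, with an interval for the log2 fold change of -0.49 to 0.70. The groups overlapped, with replicate 2 lowest in both. The Sprouty gene SPRY4 had an interval of -0.47 to 0.67, the AP-1 gene FOSL1 of -0.49 to 0.57 and the immediate-early gene EGR1 of -1.10 to 1.04. The ETS genes ETV4 and ETV5 had intervals of -1.25 to 0.63 and -1.38 to 0.46. None of these 6 was called. SPRY1 rose, by 0.63 (SE 0.11, adjusted p = 0.00048). PHLDA1, an immediate-early protein with a pleckstrin domain, was the member that fell. It was at 28.3, 32.97, 33.9 and 35.3 CPM with PD0325901 and 13.04, 19.6, 13.8 and 14.8 with the combination, without overlap, a fall of 1.09 (SE 0.15, adjusted p = 1.61e-05). With PI103 alone PHLDA1 was at 35.03 ± 2.73 CPM (SD, n = 4). Exons of other genes on the opposite strand cover 40.5% of the exons of DUSP6 and 16.5% of those of PHLDA1.

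**Figure D4:**
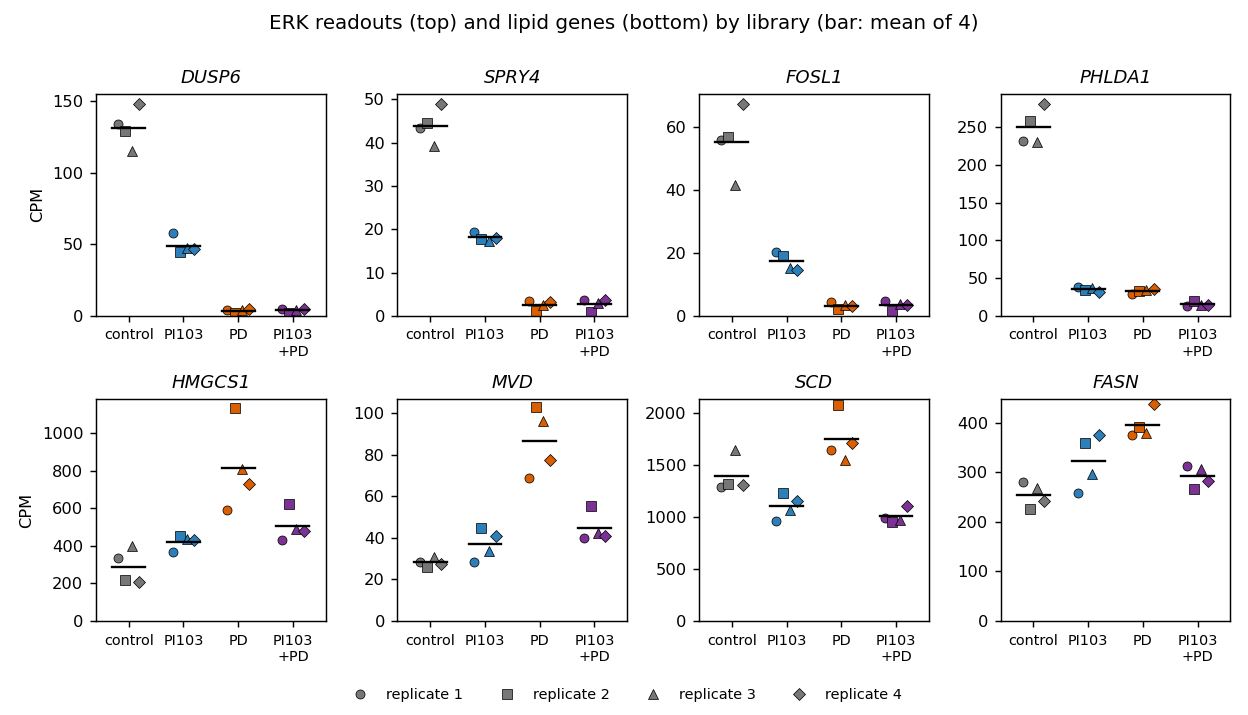
CPM of 4 ERK readouts (top) and 4 lipid genes (bottom) in the 4 replicates of control, PI103, PD0325901 and the combination, with the mean as a bar. DUSP6 lay at 3.605 and 3.895 on average with PD0325901 and the combination, against 132 in control cells, and MVD was highest with PD0325901, at 86.4.

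Among genes named for size alone, LBH (chr2:30231534-30260028), a transcription cofactor of limb and heart development, led the rises. It was at 4.11, 2.63, 3.61 and 2.99 CPM with PD0325901 and 14.8, 10.8, 14.6 and 11.98 with the combination, and rose by 1.97 (SE 0.15, adjusted p = 1.36e-08). LBH was at 2.91 ± 0.134 CPM in control cells and at 17.6 ± 2.21 with PI103 alone (SD, n = 4 each). EMP1 (chr12:13196726-13219941), an epithelial membrane protein, was at 4.05, 2.35, 3.58 and 3.33 CPM with PD0325901 and 13.8, 7.09, 10.7 and 11.4 with the combination, without overlap, and rose by 1.69 (SE 0.16, adjusted p = 2.82e-07). SYNPO, the actin-binding protein synaptopodin, was higher in level. It was at 141, 143, 97.4 and 99.6 CPM with PD0325901 and 352, 336, 304 and 254 with the combination, a rise of 1.38 (SE 0.12, adjusted p = 1.21e-07). MEGF6 rose by 1.41 (SE 0.24, adjusted p = 0.000278), MAP2, a microtubule-associated protein, by 1.27 (SE 0.18, adjusted p = 4.64e-05) and the homeobox gene HOXB3 by 1.31 (SE 0.20, adjusted p = 4.64e-05). The rest of the 12 largest rises were ERP27 and WDR52 at 1.29 and 1.24, besides CFB, OAS2, RSAD2 and CXCL11.

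The change from PD0325901 to the combination was set beside PI103 minus control, which shares no library with it. Across 13947 genes the 2 log2 fold changes correlated at a Pearson r of 0.589 and a Spearman rho of 0.531. Genes are not independent replicates, both changes come from 1 fit, and PI103 was at 0.7 µM alone and 0.35 µM in the combination, where PD0325901 also went from 0.035 to 0.0175 µM. The direction was shared by 70.4% of all tested genes and by 87.5% of the called ones. Of 1124 genes higher here, 812 (72.2%) were also higher with PI103 alone, where 26.2% of all tested genes were higher. Of 1397 lower genes, 972 (69.6%) were also lower with PI103 alone, against 25.2% of all tested genes.

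**Figure D5:**
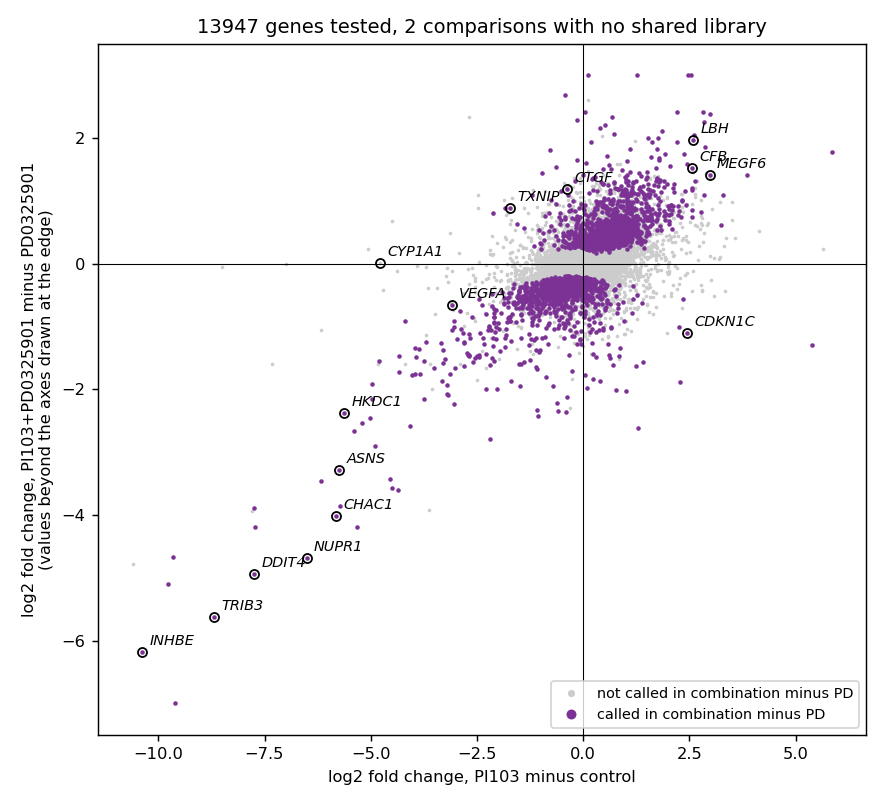
Log2 fold change of combination minus PD0325901 (vertical) against PI103 minus control (horizontal) for 13947 tested genes, coloured where combination minus PD0325901 was called. ASNS, CHAC1, DDIT4 and INHBE lay low in both, TXNIP and CTGF lay above 0 only on the vertical axis, and CYP1A1 was at -4.77 on the horizontal and 0.01 on the vertical axis.

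The 2 changes themselves differed for 3153 genes (22.6%) on edgeR's test of their difference, 1514 with the more positive change from PD0325901 to the combination and 1639 with the more negative one. For the amino acid response list 23 of 33 differed. ASNS fell by 3.29 here and had -5.74 in PI103 minus control, a difference of 2.45 (adjusted p = 0.00142), from a starting level of 1499 CPM in control cells and 351 with PD0325901. The levels reached were 36.04 ± 4.26 CPM with the combination and 28.03 ± 4.18 with PI103 alone (SD, n = 4 each). For the 20 sterol synthesis genes 17 differed. MVD had -0.95 here and 0.39 in PI103 minus control, a difference of -1.34 (adjusted p = 9.2e-06).

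Among the genes named here, MYC, TXNIP, MET, MXD1, TIPARP and CD55 rose from PD0325901 to the combination and fell with PI103 alone, each comparison past its own threshold. The rise of TIPARP (0.31) lost its call under 4 of 15 alternatives, among them those without replicate 1 of the combination or replicate 3 or 4 of PD0325901. Another 4 did the reverse: HMGCS1, FASN, MVD and CDKN1C. TXNIP had 0.88 here and -1.72 in PI103 minus control, a difference of 2.60 (adjusted p = 3.97e-06). MET had 0.74 and -0.43, a difference of 1.18 (adjusted p = 7.89e-05). MXD1, a MAX partner that opposes MYC, had 0.71 and -0.42, a difference of 1.13 (adjusted p = 8.94e-05). MYC itself had 0.32 and -1.03, a difference of 1.35 (adjusted p = 1.97e-06), though its own rise lost the call under 9 of 15 alternatives. CDKN1C had -1.11 and 2.44, a difference of -3.54 (adjusted p = 1.19e-06). In PD0325901 minus control, which shares the PD0325901 libraries with the comparison, TXNIP, MET and MYC were at -2.81, -1.49 and -1.71, while HMGCS1, FASN, MVD and CDKN1C were at 1.49, 0.64, 1.62 and 4.37. The difference was also past the threshold for VEGFA, the angiogenic ligand, which fell by 0.66 here and had -3.09 with PI103 alone (difference 2.43, adjusted p = 6.19e-08). CYP1A1, the dioxin-inducible oxidase, was at 12.7, 19.5, 7.94 and 7.41 CPM with PD0325901 and 6.03, 29.4, 5.82 and 6.67 with the combination. Replicate 2 was highest in both groups, the log2 fold change was 0.01 (SE 0.41, adjusted p = 0.987), and without replicate 2 of the combination it was -0.94 (adjusted p = 0.0205). With PI103 alone CYP1A1 was at 0.461 ± 0.0389 CPM against 12.7 ± 2.205 in control cells (SD, n = 4 each), and the difference between the comparisons was 4.79 (adjusted p = 2.95e-05).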

How the data were processed

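RNA of AGS cells was sequenced from stranded mRNA libraries. The authors deposited 1 table of raw counts per gene for 24 libraries, with 5 tally rows that were left out of all tests and library sizes (10.7% to 16.5% of each library's total). The build was GRCh38 per the submitters' processing notes. The aligner, counter, annotation and strand setting are not given in the sources used here. Groups were taken from sample titles, since the treatment field numbers the compounds upward from replicate to replicate.

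Counts were analysed in R 4.3.3 with edgeR 4.0.16: TMM scaling, filterByExpr, 1 coefficient per group over all 24 libraries, and the robust quasi-likelihood F test, two-sided, with Benjamini-Hochberg adjustment over 13947 genes and a threshold of 0.05. Log2 fold changes are combination minus PD0325901 unless another comparison is named, SE is the log2 fold change over the root of F, and intervals are 1.96 SE to each side. CPM use TMM-scaled totals. The edgeR fit was checked on simulated counts.

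Named were the 12 largest rises and 12 largest falls (at least 5 CPM in the higher group, 1 direction in all 4 pairs), a fixed set of pathway genes, and the 3 largest called members of each list. Other genes, such as ATF4, FGF21, MTHFD1L, AARS, OAS3, GAA and all members given to spell out a count of 5 or fewer, were named after their values were seen. The members and the 38 lists were chosen with earlier results of these data known. Some list members are not reported here by name. Of 900 listed symbols 899 were found in the table. Promoters and gene positions are from RefSeq (GRCh38.p14), and exon overlaps from GENCODE.

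Replicate numbers are batch numbers in the labels, so they pair the samples. Deviations of same-numbered PD0325901 and combination libraries correlated at 0.214 to 0.520 (4 pairs), against -0.350 to 0.156 for different numbers (12 pairs). Deviations were taken from each group's own mean and sum to 0 within it. Positive values for the same number therefore push those for different numbers down, and the ranges are not independent. The alternatives were a replicate block, DESeq2-type size factors, DESeq2 1.42.0, 2 other filters, only the 8 libraries compared, each library left out, and batch 2 left out, the last chosen after seeing the data. The p-values measure the spread between replicate cultures of 1 cell line.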

Additional observations from a re-analysis of the deposited data

Results flagged for a closer look

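Among 286 groups of 4 libraries examined (named genes in each of the 2 treatments), 26 held 1 library whose gap to the nearest other exceeded Dixon's critical value for groups of 4, as a share of the group's range. Chance flags about 1 group in 20. Replicate 2 of the combination accounted for 17 and replicate 2 of PD0325901 for 6. No explanation was tested.

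In replicate 2 of the combination, values above the other libraries were DDIT4 at 7.51 CPM (others 4.34 to 4.79), CTH at 6.57 (4.18 to 4.44), HKDC1 at 5.26 (0.492 to 0.869), PIK3IP1 at 1.58 (0.564 to 0.727), CYP1A1 at 29.4 (5.82 to 6.67) and CARS at 56.5 (46.8 to 47.2). Also above were MVD at 55.6 (40.2 to 42.2), ALDOC at 18.98 (11.5 to 12.1), MXD1 at 36.0 (28.9 to 29.1), CDKN1C at 13.6 (7.72 to 8.13), P4HA1 at 85.0 (63.4 to 65.1) and HERPUD1 at 110.5 (60.0 to 67.8). Values below the others were RRM2 at 119 (213 to 215), TYMS at 152 (272 to 283), SPRY1 at 8.60 (10.0 to 10.2), MXD3 at 6.22 (11.1 to 11.8) and BMP4 at 11.6 (17.6 to 18.3).

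In replicate 2 of PD0325901, HKDC1 was at 20.8 CPM (others 5.22 to 5.999), CCNG2 at 41.9 (26.2 to 28.8) and PIK3R3 at 19.4 (9.52 to 11.1), all above, and RRM2 at 137 (190.2 to 193), PSPH at 71.5 (123 to 127) and GART at 143 (179 to 181), all below. In replicate 1 of PD0325901, SLC7A11 was at 131 CPM (62.4 to 65.6) and TXNIP at 117 (40.6 to 52.9). In replicate 1 of the combination, PHGDH was at 0.0250 CPM and at 0 in the others.

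The change from PD0325901 to the combination differed from the change with PI103 alone for 3153 genes, by the test of the difference itself.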

How the results depend on the processing

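The number of genes called (2521) was 3524 with the replicate block, 2514 with DESeq2-type size factors, 2921 with DESeq2, 2119 without a filter and 2772 without batch 2, all within 1.5 times. It was 1222 (621 higher, 601 lower) when only the 8 libraries compared entered the fit, which leaves fewer residual degrees of freedom. Leaving out 1 library at a time gave 1385 to 3113 called, 587 to 1330 higher and 798 to 1783 lower, with the lowest counts without replicate 3 of PD0325901 and the highest without replicate 2 of PD0325901. Genes called with an absolute log2 fold change of at least 1 (328) were 214 under a filter of 1 CPM in 4 libraries, which tests fewer genes, and 231 to 413 with 1 library left out. The count for the difference from PI103 alone (3153) stayed between 2272 and 4006 over all alternatives. Of 123 called genes among 143 named and tested, 94 kept the call under all 15 alternatives, 0 changed direction, 25 lost the call with only the 8 libraries, 18 without replicate 3 of PD0325901, and 0 with the replicate block or DESeq2. CYP1A1, not called, changed from 0.01 to -0.94 without replicate 2 of the combination (range 0.35 to -0.94 over fits with 1 library left out). The block took away no named call, and 5 uncalled named genes were called in the same direction under some alternative. With 4 libraries a group, a gene such as MKI67 that differs by 0.38 could not be told from no change, and for genes with few counts, such as PHGDH, counting error limits the ratio.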
